A study of Mus musculus with 4 samples.

Results

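Endogenous CD8 T cells that carried Ly6c2 RNA and no detected RNA of the inhibitory receptor PD-1 were described in B16-F10 tumours of mice. They were taken from the 2 endogenous libraries of a droplet experiment by counts of unique molecular identifiers (UMIs). The members were chosen by these counts. Barcodes needed 1000 UMIs and 500 genes or more, and no more than 10% of UMIs could be mitochondrial. They also had to hold at least 2 UMIs of Cd8a and Cd8b1 together, at least 1 of the CD3 chain genes and 0 of Cd4, with Lyz2 under 10 per 10000 UMIs. Cells with 2 or more UMIs of the cycle genes Mki67 and Top2a, or 3 or more of the interferon-induced genes Ifit1, Ifit3 and Ifit3b, were left out. Of the cells that remained, those with 0 Pdcd1 UMIs, fewer than 2 Gzmk UMIs and at least 2 Ly6c2 UMIs were the members. There were 476 of them, among 2764 endogenous cells that passed the CD8 gate and 15132 cells kept in all 4 libraries. The library of the IRF4 arm held 313 and that of the control arm 163.

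Wild-type C57BL/6 mice bore B16-F10, a transplantable melanoma line of the same strain, and received Pmel-1 CD8 T cells on day 3. The T cell receptor of Pmel-1 cells is a transgene that recognises gp100, a protein of melanocytes and melanomas, and here they had been transduced with a vector for IRF4 and GFP or, as the control, for GFP alone. Transferred cells and the host's CD45+ cells were sorted separately from the tumours of each arm on day 14, which gave 4 libraries, 1 per group. The cells described here are the host's own and were not transduced, so the arm names which Pmel-1 cells the host had received. All groups share the tumour and the transfer, and no arm without transferred cells was analysed here. The labels do not say how many mice stand behind a library. With 1 library per group no difference between arms could be tested, and every interval below is a 95% interval for counting error only.

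Ly6c2 encodes one of the Ly-6C surface proteins, which in mice mark monocytes and also CD8 T cells after priming, central memory cells among them. A CD8 T cell that leaves a lymph node or a tissue does so through S1pr1, the receptor for sphingosine 1-phosphate, and the chemokine receptor CCR7 guides it into lymph nodes. KLF2 drives transcription of S1pr1 in T cells, TCF1, encoded by Tcf7, keeps memory and stem-like T cells, and CXCR3 guides primed T cells to interferon-induced chemokines in inflamed tissue. PD-1, in contrast, is induced by signalling through the T cell receptor and stays high on exhausted cells in tumours.

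Ly6c2 (ENSMUSG00000022584, chromosome 15, 75108158 to 75111970, minus strand, GRCm38) has a close copy, Ly6c1 (ENSMUSG00000079018, chromosome 15, 75044018 to 75048830, minus strand), on the same chromosome and strand. The 300 bases around the start of each gene are shown because the copies share most of their transcript while nearly all UMIs of the pair in these cells were assigned to Ly6c2. They come from RefSeq, build GRCm38.p6, minus strand, 5′ to 3′, from 250 bases before the start site to 50 after it. Both genes of this pair matched the RefSeq table, and each has 2 start sites there, of which the first listed is printed. Capitals mark TGTGGT, a motif of RUNX factors, or its reverse complement ACCACA.
Ly6c2, chr15:75111922-75112221: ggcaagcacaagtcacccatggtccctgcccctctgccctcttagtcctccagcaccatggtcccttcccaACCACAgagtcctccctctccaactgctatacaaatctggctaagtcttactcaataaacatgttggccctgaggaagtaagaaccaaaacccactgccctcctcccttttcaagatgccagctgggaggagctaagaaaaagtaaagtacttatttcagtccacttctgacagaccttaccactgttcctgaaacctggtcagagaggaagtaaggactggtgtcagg
Ly6c1, chr15:75048788-75049087: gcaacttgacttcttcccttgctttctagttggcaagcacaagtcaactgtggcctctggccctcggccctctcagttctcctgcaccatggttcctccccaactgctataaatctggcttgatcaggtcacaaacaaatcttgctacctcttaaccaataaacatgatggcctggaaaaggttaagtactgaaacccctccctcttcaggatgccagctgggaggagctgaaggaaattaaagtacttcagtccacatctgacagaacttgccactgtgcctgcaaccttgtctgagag
Aligned end to end, the promoters were identical at 208 of 266 aligned bases (78.2%). The motif occurred 1 time in the Ly6c2 window and 0 times in the Ly6c1 window, and 5506 of 32851 promoters of the same length (16.8%) hold it. The transcripts were closer than the promoters, with 802 of 822 aligned bases identical (97.6%) and the longest identical run at 188 bases. Over the last 400 bases, where a 3′ library reads, 386 of 393 aligned bases were identical (98.2%). Reads from the shared stretches could have been split between the copies or dropped, so the level of Ly6c2 is uncertain.

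Ly6c2 itself was part of the choice of cells, and its level is a description. It stood at 1560.5 CPM (1509 to 1613) in the IRF4 arm, and the control arm had 1397 CPM (1335 to 1461). CPM gives the UMIs of a gene, added up over a group of cells, per 1000000 UMIs of all genes in the same cells. A cell held a median of 9 Ly6c2 UMIs in both libraries, with a range of 2 to 40 for the IRF4 arm and of 2 to 51 for the control. Ly6c1 had 1 UMI over all members of the IRF4 library and 0 over those of the control. Most cells therefore lay well inside the limit, and the copy was at or near 0. After each cell was thinned to 2000 UMIs, which left out 0 cells, 89.8% and 85.9% of the members had a Ly6c2 UMI in the IRF4 and control arms, as against 7.27% and 2.84% of B cells. The B cells had median depths of 3314.5 and 3595 UMIs and the members of 6694 and 7506.

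The members were T cells by their RNA. Trac, the constant segment of the T cell receptor alpha chain, stood at 805 and 692 CPM and Cd8b1, the beta chain of CD8 that the gate used, at 726 and 715 CPM in the IRF4 and control arms. Both CD8 chains were found in 79.2% (74.3 to 83.6) and 85.3% (78.9 to 90.3) of cells, and Cd8a without Cd8b1 in 15% and 11.7%. The gate required UMIs of the CD8 and CD3 genes, so the CD8 values are a description, and of these genes only Trac lay outside the rule. Transcripts of other cells were present at low levels. The summed level of the 12 macrophage markers was 265 and 628 CPM, with 1 and 0 markers at 0. That of the 8 B cell markers was 175 and 349 CPM with none at 0, and that of the 8 dendritic markers 419 and 862 CPM with 1 at 0 in each library. Melanoma markers summed to 3.10 and 3.65 CPM. The 4 haemoglobin genes summed to 0.886 and 7084 CPM, and 1 control cell held 9576 of the 9693 control UMIs. Cells with 1% or more of their UMIs from these non-T lists numbered 3 and 6. The control library thus carried more RNA of other cells, and counts without those cells are given beside the counts between arms.

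The summed UMIs of the members were 2258278 and 1368374, with median mitochondrial shares of 4.80% and 4.98% and ribosomal shares of 33.7% and 35.2%. Of the barcodes, 18 occurred in both endogenous libraries, and 2 members shared a barcode with another library. Among non-cycling endogenous CD8 cells outside the interferon gate, the members made up 313 of 1040 cells (30.1%, 27.3 to 33) in the IRF4 arm and 163 of 496 (32.9%, 28.7 to 37.2) in the control arm, with overlapping intervals. Among all gated CD8 cells the shares were 15.5% (14 to 17.2) and 21.9% (19 to 25), with no overlap of intervals. That denominator also holds the cycling cells and those past the interferon limit. Of 373 and 240 cells that passed every gate but that on Ly6c2, 83.9% (79.8 to 87.5) and 67.9% (61.6 to 73.8) were members. Those intervals did not overlap either, and no difference between the arms was tested. The sort on CD45 and the gates set these shares.

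Cells just inside and just outside the limits had similar levels for some genes and not for others. With exactly 2 Ly6c2 UMIs, 22 and 9 cells had S1pr1 at 106 and 89.9 CPM and Cxcr3 at 206 and 234 CPM. With 1 Ly6c2 UMI, 19 and 20 cells had S1pr1 at 87.1 and 74.7 CPM and Cxcr3 at 107 and 88.2 CPM. With 1 Pdcd1 UMI and all other gates met, 50 and 22 cells had S1pr1 at 83.2 and 76.7 CPM and Tcf7 at 222 and 115 CPM. Tcf7 was thus below its level in all members, 325 and 308 CPM, in the cells that missed the Pdcd1 limit by 1 UMI. At the Gzmk limit, 51 and 18 members with 1 Gzmk UMI had Tcf7 at 173 and 149 CPM and Gzmb at 625 and 92.2 CPM. Members with 0 Gzmk UMIs had Tcf7 at 353 and 327 CPM and Gzmb at 117 and 42.4 CPM. Just outside, with 2 Gzmk UMIs, 28 and 14 cells had Tcf7 at 170 and 84.5 CPM and Gzmb at 578 and 197 CPM.

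The first class compared passed the same gates up to the interferon genes but held at least 1 Pdcd1 and at least 2 Gzmk UMIs, with no limit on Ly6c2. It numbered 354 cells (IRF4) and 91 cells (control), whose median depths were 9234 and 9077 UMIs, and is called the Gzmk Pdcd1 cells here. A gene was measured at 10 CPM and 20 UMIs in the higher class, and it was counted as higher or lower past a ratio of 1.5 after 1 CPM was added to both levels. Of 6273 genes measured in both libraries, 316 (5.04%) were higher and 635 (10.1%) lower in the members in both. Taken singly, the IRF4 library had 12.3% of genes higher and 16.3% lower, and the control library 10.1% and 19.7%. Scaling without ribosomal and mitochondrial genes gave 676 higher and 318 lower, since it moved the median of all genes by 0.22 and 0.25 on the log2 scale, and median of ratios scaling gave 393 and 505. The ribosomal share was 24.1% and 24.6% in the Gzmk Pdcd1 cells. At least 2 Ly6c2 UMIs were held by 147 of its 354 cells and 58 of its 91. The classes were thus split by Pdcd1, Gzmk and Ly6c2, so the levels that follow describe what went with the split and are no test of it.

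Most genes of the naive and stem list were higher in the members. Of 15 measured genes of the naive and stem list, 14 were higher in both libraries and 0 lower, and both other scalings gave the same counts. The egress and homing list had 4 of 15 higher and 3 lower, and the memory list 3 of 12 higher, Il18r1, Il7r and Bcl2, and 0 lower. S1pr1 (ENSMUSG00000045092, chromosome 3, 115710433 to 115715072, minus strand) stood at 99.2 and 121 CPM in the IRF4 and control arms against 31.7 and 27.7 CPM in the Gzmk Pdcd1 cells, ratios of 3.13 (2.49 to 3.95) and 4.36 (2.92 to 6.71). Il7r, the interleukin-7 receptor that sustains memory T cells, had 476 and 489 CPM against 42.2 and 97.3 CPM, ratios of 11.3 (9.51 to 13.4) and 5.03 (4.07 to 6.25). For these receptors the levels in the members lay above those in the Gzmk Pdcd1 cells of both libraries, with no overlap of intervals. Ratios were 8.18 and 8.74 for Tcf7, 6.01 and 10.7 for Ccr7, 4.03 and 3.11 for Klf2, 7.04 and 6.31 for the chromatin organiser Satb1, 4.69 and 3.2 for the survival gene Bcl2 and 1.72 and 3.43 for Lef1, the partner of TCF1. Slamf6, which marks stem-like exhausted cells, was the exception, with ratios of 0.677 and 1.22.

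Cxcr3 (ENSMUSG00000050232, chromosome X, 101731535 to 101734269, minus strand) did not separate the classes. It stood at 232 and 165 CPM in the members and 226 and 177 CPM in the Gzmk Pdcd1 cells, ratios of 1.03 (0.918 to 1.15) and 0.931 (0.763 to 1.14). S1pr4, another sphingosine 1-phosphate receptor, had ratios of 0.961 and 0.75, and the adhesion receptor Cd44 had 1.0 and 0.814. Other receptors of migration had lower levels in the members. Cxcr6 stood at 234 and 167 CPM against 644 and 883 CPM, ratios of 0.364 and 0.189. Ccr2, a receptor for inflammatory chemokines, had ratios of 0.324 and 0.234, and the integrin gene Itga4 had 0.647 and 0.558. With the gates applied to thinned cells, the mean log2 ratio of the libraries was -0.024 for Ccr2 and 0.11 for Itga4, and neither was then called. After thinning, an S1pr1 UMI was found in 19.8% and 23.9% of members and 6.78% and 3.3% of Gzmk Pdcd1 cells, as against 0.202% and 0.444% of myeloid cells with median depths of 11571.5 and 14367 UMIs. A Tcf7 UMI was found in 44.1% and 41.7% of members, 6.21% and 5.49% of Gzmk Pdcd1 cells and 0.909% and 0.873% of B cells. A Cxcr3 UMI was found in 36.1% and 28.2% of members and 36.4% and 36.3% of Gzmk Pdcd1 cells. Unthinned, the shares of members were 45.7% and 55.2% for S1pr1, 78.9% and 78.5% for Tcf7 and 69.6% and 62.0% for Cxcr3.

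**Figure D1:**
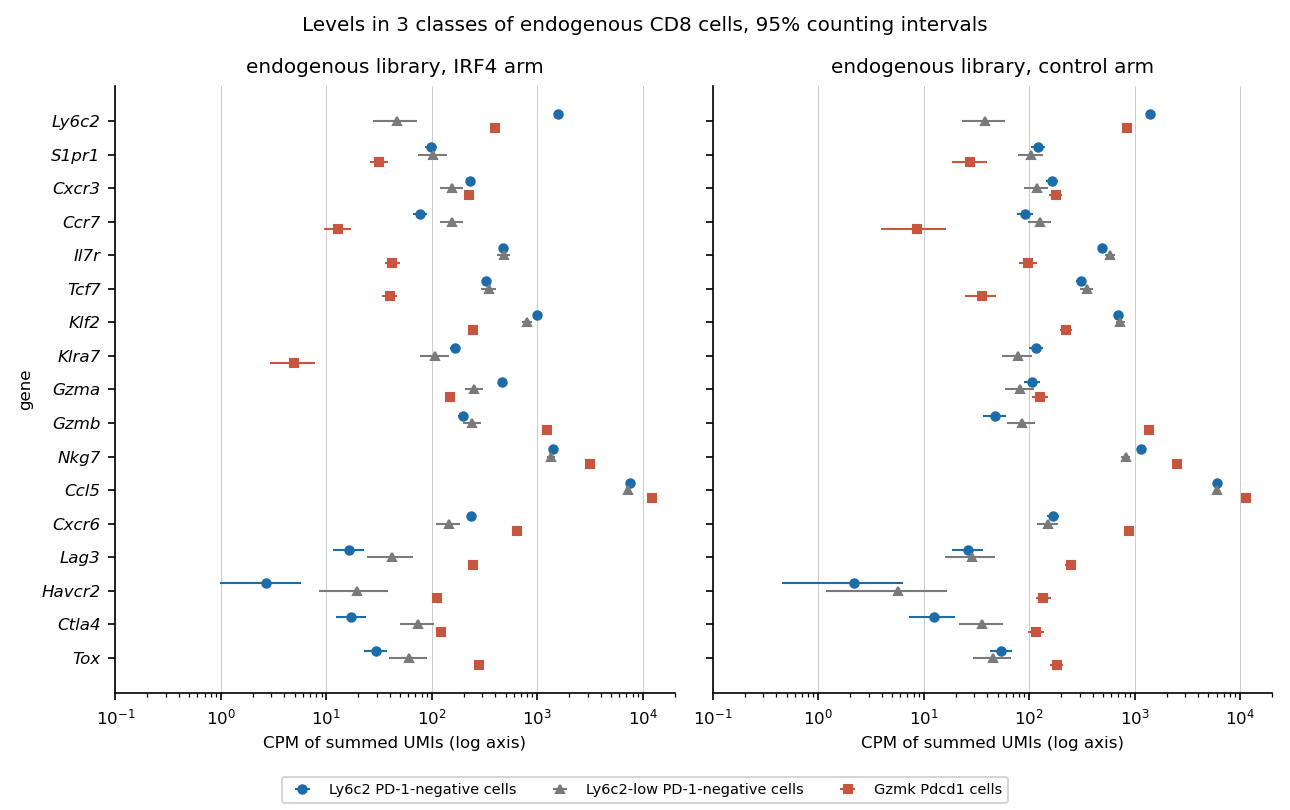
Levels of 17 genes in CPM of summed UMIs on a log axis, in the Ly6c2 PD-1-negative cells, the Ly6c2-low PD-1-negative cells and the Gzmk Pdcd1 cells of the IRF4 arm (left) and the control arm (right). Bars are 95% counting intervals, and Klra7 of the Gzmk Pdcd1 cells of the control arm is at 0 and not drawn. Ccr7, Il7r, Tcf7 and Klf2 lie to the right in both PD-1-negative classes, and Lag3, Havcr2, Ctla4 and Tox lie to the right in the Gzmk Pdcd1 cells, while Cxcr3 overlaps between the members and the Gzmk Pdcd1 cells.

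Inhibitory receptors and exhaustion genes beside Pdcd1 were lower in the members, with 9 of 12 measured members of that list lower in both libraries and 1 higher. Lag3, an inhibitory receptor, stood at 16.4 and 26.3 CPM against 243 and 246 CPM, ratios of 0.0674 (0.0471 to 0.0937) and 0.107 (0.0732 to 0.152). Havcr2, which encodes TIM-3, stood at 2.66 and 2.19 CPM against 113 and 136 CPM, ratios of 0.0235 and 0.0161. Tox, a transcription factor of exhausted T cells, stood at 29.7 and 54.1 CPM against 278 and 181 CPM, ratios of 0.107 and 0.298. In these 3 genes the members lay below the Gzmk Pdcd1 cells of both libraries. Cd160, a receptor on the same list, was not lower in both. Ctla4 had ratios of 0.14 and 0.107 and Rgs16, a regulator of G protein signalling, 0.0386 and 0.0149. The gene counted as higher was Ikzf2, which encodes Helios, with 295 and 167 CPM against 132 and 65.8 CPM. After thinning, a Lag3 UMI was present in 3.19% and 2.45% of members and 33.3% and 29.7% of Gzmk Pdcd1 cells, with 0% and 0.655% in B cells. For the 0 of 110 B cells a floor of 3 cells stands at 2.73%, which is not a Clopper-Pearson limit.

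The cytotoxic genes went in different directions. Of 13 measured, 5 were lower in both libraries and 1 was higher. Gzmb, which encodes granzyme B, stood at 197 and 47.5 CPM in the IRF4 and control arms against 1237 and 1373 CPM, ratios of 0.159 (0.144 to 0.175) and 0.0346 (0.0266 to 0.0444). Prf1, which encodes perforin, had ratios of 0.41 and 0.314, the granule gene Nkg7 0.445 and 0.455 and the death ligand gene Fasl 0.371 and 0.337. Gzmm, another granzyme, was the gene counted as higher, at 23 and 17.5 CPM against 2.48 and 7.63 CPM. Gzma was higher by this count in the IRF4 arm and not in the control arm, at 459.6 against 148 CPM in the IRF4 arm and 107 against 126 CPM. The chemokine gene Ccl5 was abundant in both classes, at 7489 and 6057 CPM against 12248 and 11307 CPM, and Ccl4 and Ifng, which encodes interferon-gamma, were lower with ratios of 0.215 and 0.12 and of 0.389 and 0.168. With the gates applied to thinned cells, the log2 ratios of Nkg7 and Ccl5 were -0.52 and -0.034, and neither was then called.

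Genes of metabolism and the cytoskeleton were lower together. Of 11 measured glycolysis genes, 9 were lower in both libraries and 0 higher, with Gapdh at ratios of 0.333 and 0.433, Eno1 at 0.544 and 0.569 and Ldha, a lactate dehydrogenase gene, at 0.608 and 0.556. Of 12 genes of the list of S100 proteins, annexins and cytoskeleton, 10 were lower in both. S100a4 stood at 272 and 267 CPM against 1768 and 1564 CPM, Lgals1, which encodes galectin-1, had ratios of 0.215 and 0.231, and Vim, the vimentin gene, 0.417 and 0.426. Scaling without ribosomal and mitochondrial genes gave 6 lower glycolysis genes and median of ratios scaling 8. When all gates were applied to cells thinned to 2000 UMIs, the lower counts were 2 for glycolysis, 3 for this list, 3 for the inhibitory list and 0 for the cytotoxic list. That setting lets cells with few Pdcd1 UMIs into the members and also changes which cells fill the Gzmk Pdcd1 class. The part of either change, or of depth, in these counts was not tested. The higher count of the naive and stem list was then 12.

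By the ranking over all genes at 50 CPM or more, the genes furthest above the Gzmk Pdcd1 cells included Klra7, Tnfsf8, Nsg2, Tcf7, Dapl1, Il7r and Ccr7. Klra7, an inhibitory Ly49 receptor of NK cells and of some memory CD8 T cells in mice, stood at 166 and 116 CPM against 4.97 CPM in the IRF4 arm and 0 UMIs in the control arm. Its ratio in the IRF4 arm was 33.5 (20.9 to 57.2), and in the control arm it was 40.6-fold higher if the Gzmk Pdcd1 class is set to a floor of 3 counts. The lower limit of the counting interval in the control arm was 32.6. A Klra7 UMI was present in 15.7% and 12.3% of thinned members and 0.909% and 0.655% of thinned B cells, a minority of the cells. The Ly49 genes are close copies of each other, and reads could have been split among them. Klra1, a further Ly49 gene, had 53.6 and 42.4 CPM against 3.31 and 0.954 CPM. Tnfsf8, which encodes CD30 ligand, had 53.6 and 76.7 CPM against 3.03 and 4.77 CPM, and Dapl1, found in naive and memory CD8 T cells, 70.9 and 141 CPM against 8.0 and 18.1 CPM. The genes furthest below included Havcr2, Rgs16, Gzmb, Lag3, the transcription factor gene Maf, Ctla4 and Glrx, a glutaredoxin gene.

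The second class compared, Ly6c2-low PD-1-negative cells, passed every gate of the members but held fewer than 2 Ly6c2 UMIs, and numbered 60 and 77 cells at median depths of 5431.5 and 6087 UMIs. Of 4108 genes measured in both libraries, 131 (3.19%) were higher and 43 (1.05%) lower in the members in both. Taken singly, the IRF4 library had 16.2% of genes higher and 5.56% lower, and the control library 15.7% and 4.56%. With a filter on the mean level of 50 CPM, which treats both classes alike, 10 were higher and 27 lower. Some genes were close between the classes, with ratios of 0.967 (0.693 to 1.38) and 1.16 (0.848 to 1.6) for S1pr1, 0.995 and 0.833 for Il7r and 0.938 and 0.88 for Tcf7. Ccr7 was counted as lower in the IRF4 library and not in the control library. Its mean log2 ratio of the libraries lay between -1.04 and -0.21 over all alternatives. For Cxcr3 the same mean lay between 0.26 and 0.91, so above 0 in every setting. None of 14 measured egress and homing genes, Cxcr3 among them, was counted as higher or lower in both libraries. At the shares of all genes given above, a list of this size would hold few calls.

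Of 12 measured memory genes, Il18rap, Bcl2 and Klrk1 were higher in the members than in the Ly6c2-low cells and 0 lower, of 7 terminal effector genes Klrc1 and Klrk1 were higher, and of 5 NK and innate-like markers 0 were. Bcl2 stood at 478 and 488 CPM against 254 and 242 CPM, ratios of 1.88 (1.54 to 2.33) and 2.01 (1.66 to 2.45). Klrk1, which encodes the activating receptor NKG2D, had ratios of 1.65 and 1.78, Klrc1, which encodes NKG2A, 1.69 and 2.06, Il18rap, a chain of the interleukin-18 receptor, 1.72 and 2.15, and Ctsw, a cathepsin gene of cytotoxic cells, 1.57 and 2.16. The call of Klrk1 was lost at a limit of 3 Ly6c2 UMIs, with a mean log2 ratio of 0.56. Samd3, Gstp1, Kbtbd11 and Slfn8 completed the 8 highest. Dapl1, Slamf6 and Igfbp4, members of the naive and stem list, were lower, with ratios of 0.421 and 0.582, 0.596 and 0.562 and 0.261 and 0.314. Of the 8 lowest genes, H2-Ab1, H2-Eb1, H2-Aa, Cd74 and H2-DMb1 belong to MHC class II presentation, with Cst3 beside them, and 1 or 2 Ly6c2-low cells held 50% of the UMIs of each in each library. These are transcripts of antigen-presenting cells, and the summed dendritic marker level in the Ly6c2-low cells was 3571 and 3668 CPM. Ckb and Hilpda were also among the lowest, and 1 Ly6c2-low cell in each library held 50% of their UMIs. Without cells of other RNA the 8 lowest were Atf3, Arg1, Thbs1, Hmox1, Hilpda, Slc2a1, Tiparp and Bhlhe40, and at most 4 Ly6c2-low cells held 50% of the UMIs of each.

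The study compared hosts given IRF4-transduced and control Pmel-1 cells, and the naive and stem genes of the members are given first. Of 7026 genes measured, 461 (6.56%) were higher and 342 (4.87%) lower in the IRF4 arm, and without the cells that carried RNA of other cell types 489 of 6829 (7.16%) were higher and 251 (3.68%) lower. Of 16 naive and stem genes 0 were higher and 2 lower, with a list median of -0.24 on the log2 scale against 0.06 for all genes measured. Of 15 egress and homing genes, S1pr5 and Itgb1 were higher and 0 lower. Without the cells that carried other RNA, Actn1 of the naive and stem list was lower as well, and Ccr2 of the egress and homing list was higher. S1pr1 stood at 99.2 against 121 CPM, a ratio of 0.823 (0.67 to 1.01), and Il7r at 476 against 489 CPM, a ratio of 0.974 (0.883 to 1.07). Tcf7 stood at 325 against 308 CPM, a ratio of 1.05 (0.934 to 1.19). None of these passed a ratio of 1.5, and all 3 intervals include 1. Klf2 was at 983 against 695 CPM, a ratio of 1.41 (1.31 to 1.53), and Cxcr3 at 232 against 165 CPM, a ratio of 1.41 (1.2 to 1.65). The naive and stem genes counted as lower in all members were Dapl1, at 70.9 against 141 CPM, a ratio of 0.502 (0.405 to 0.623), and Ccr9, at 4.87 against 34.3 CPM (0.142). Ccr9 encodes a chemokine receptor that plasmacytoid dendritic cells also carry. The marker Siglech of those cells was likewise lower, at 9.74 against 43.8 CPM (0.222), and its part in the Ccr9 value was not tested.

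Several cytotoxic genes were higher in the IRF4 arm, with 6 of 13 measured members of the list higher and 0 lower, and the same 6 without the cells that carried other RNA. With the gates applied to thinned cells 3 of 13 were higher and 1 lower. The shares of all genes given above belong to the main setting, so these thinned counts cannot be set against them. Of 8 measured NK and innate-like markers, Ncr1, Klrb1c, Klra4 and Klra8 were also higher and Tyrobp lower. Without the cells that carried other RNA the same 4 were higher and 0 lower. The part of these markers in the cytotoxic values was not tested, and the arm ratios of Gzma and Gzmb without cells of innate-like transcripts are given further below. Gzma (ENSMUSG00000023132, chromosome 13, 113093825 to 113100981, minus strand), which encodes granzyme A, stood at 459.6 against 107 CPM, a ratio of 4.31 (3.62 to 5.16). Gzmb (ENSMUSG00000015437, chromosome 14, 56258838 to 56262260, minus strand) stood at 197 against 47.5 CPM, a ratio of 4.14 (3.18 to 5.46). Few cells carried these UMIs: 5 cells of the IRF4 arm and 2 of the control arm held 50% of the Gzma UMIs, and 12 and 4 cells those of Gzmb. A Gzmb UMI was present in 17.6% and 6.75% of thinned members of the IRF4 and control arms, against 7.27% and 1.31% of B cells and 3.24% and 0.508% of myeloid cells, which should lack it and differed in the same order. For Gzma the shares were 12.8% and 6.13% in members, 4.55% and 3.71% in B cells and 4.45% and 0.825% in myeloid cells. Unthinned, 29.1% and 15.3% of members had a Gzmb UMI and 20.8% and 14.1% a Gzma UMI. In members with 0 Gzmk UMIs, Gzmb stood at 117 against 42.4 CPM, and in those with 1 Gzmk UMI at 625 against 92.2 CPM. The log2 ratio of Gzmb, 2.03, was 0.0074 when the gates were applied to thinned cells, and that of Gzma, 2.10, lay between 1.13 and 2.61 over all alternatives.

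The granzyme inhibitors Serpinb6b and Serpinb9 were higher too, at 112 against 34.3 CPM, a ratio of 3.26 (2.38 to 4.55), and 91.2 against 35.1 CPM, a ratio of 2.6 (1.89 to 3.64). Prf1 stood at 31.9 against 18.3 CPM, a ratio of 1.75 (1.09 to 2.87). Nkg7 and Ccl5, at ratios of 1.23 and 1.24, did not pass 1.5. With the gates applied to thinned cells the log2 ratio of Serpinb6b was 0.39 and that of Prf1 0.30, and neither was then called. Prf1 was not called in 5 further alternatives either. Among the lectin receptors, Klrk1 stood at 449.9 against 219 CPM, a ratio of 2.05 (1.8 to 2.34), Klrc1 had a ratio of 1.87 and Klrd1, the partner chain CD94, 1.26. The cytokine genes Xcl1 and Ifng had 165 against 74.5 CPM (2.21) and 49.2 against 19.7 CPM (2.49). Neither Klrk1, at a log2 ratio of 0.44 in cells with no Lyz2 UMI, nor Xcl1, at 0.45 without cells of innate-like transcripts, was called in those settings. Of the inhibitory list 3 of 10 measured were higher and 4 lower. Without the cells that carried other RNA, 4 of 9 were higher and 3 lower. In all members Tox stood at 29.7 against 54.1 CPM, a ratio of 0.549 (0.388 to 0.774), and Lag3 at 16.4 against 26.3 CPM, a ratio of 0.623 (0.383 to 1.01). The Lag3 interval includes 1, 2 control cells held 50% of its control UMIs, and its direction turned to a log2 ratio of 0.76 in cells with no Lyz2 UMI. Zeb2, a factor of terminal effector cells that macrophages also express, stood at 44.3 against 107 CPM (0.415), with 3 control cells holding 50% of its control UMIs, and its log2 ratio turned to 0.94 in the same setting.

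**Figure D2:**
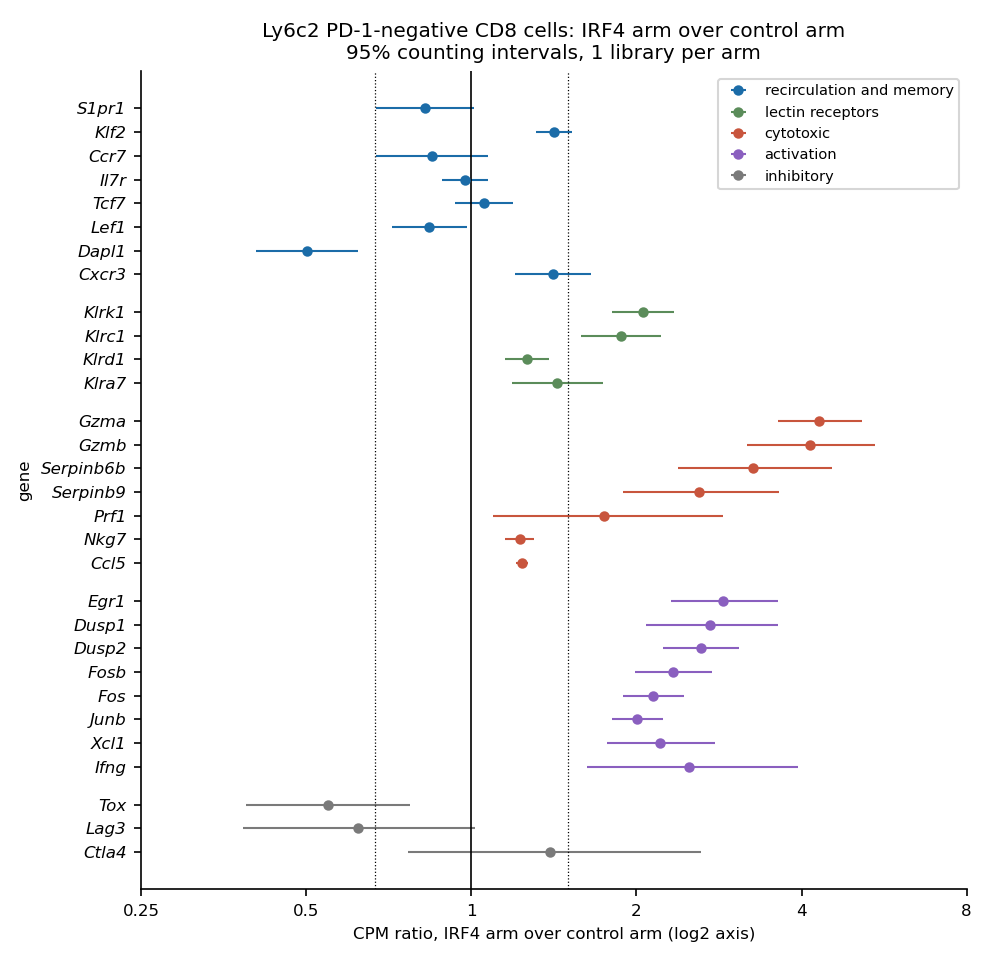
CPM ratios, IRF4 over control, in the Ly6c2 PD-1-negative cells on a log2 axis for 30 genes in 5 groups, with 95% counting intervals and 1 library per arm. The solid line is a ratio of 1 and the dotted lines mark 1.5 in each direction. Gzma, Gzmb and the activation genes lie to the right of the dotted line, while S1pr1, Ccr7, Il7r and Tcf7 lie between the lines and Dapl1 and Tox to the left.

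Genes induced early after receptor signalling were also higher in the IRF4 arm, with 8 of 14 measured members of that list higher and 0 lower and a median of 0.90. Without the cells of other RNA the same 8 were higher and Myc was lower. Egr1, an immediate early transcription factor, stood at 204 against 70.9 CPM, a ratio of 2.88 (2.31 to 3.62). Fos stood at 484 against 226 CPM, a ratio of 2.14 (1.89 to 2.44), and its relative Fosb at 336 against 144 CPM, a ratio of 2.33 (1.99 to 2.74). Junb had a ratio of 2.01, and Dusp1 and Dusp2, phosphatases that shut down MAP kinases, 2.73 and 2.62. The ratios of several of these genes lay above 1 in other cell types of the IRF4 library as well. The arm ratio of Fos was 1.76 in the Gzmk Pdcd1 cells, 2.27 in the Ly6c2-low cells, 1.98 in NK cells, 1.77 in B cells and 3.32 in myeloid cells. That of Dusp1 was 2.02 in the Gzmk Pdcd1 cells, 1.37 in the Ly6c2-low cells, 2.6 in NK cells, 1.7 in B cells and 3.65 in myeloid cells. That of Egr1 was 1.4 in the Gzmk Pdcd1 cells, 4.46 in the Ly6c2-low cells, 2.07 in NK cells, 1.48 in B cells and 3.22 in myeloid cells. The part of the library as a whole in the members' values was not tested. For Gzma the arm ratios were 1.17 in Gzmk Pdcd1 cells and 0.951 in NK cells, and for Gzmb 0.901 and 0.942. In the Ly6c2-low cells they were 3.09 and 2.84, and in myeloid cells 10.8 and 5.67. No difference between these classes was tested.

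**Figure D3:**
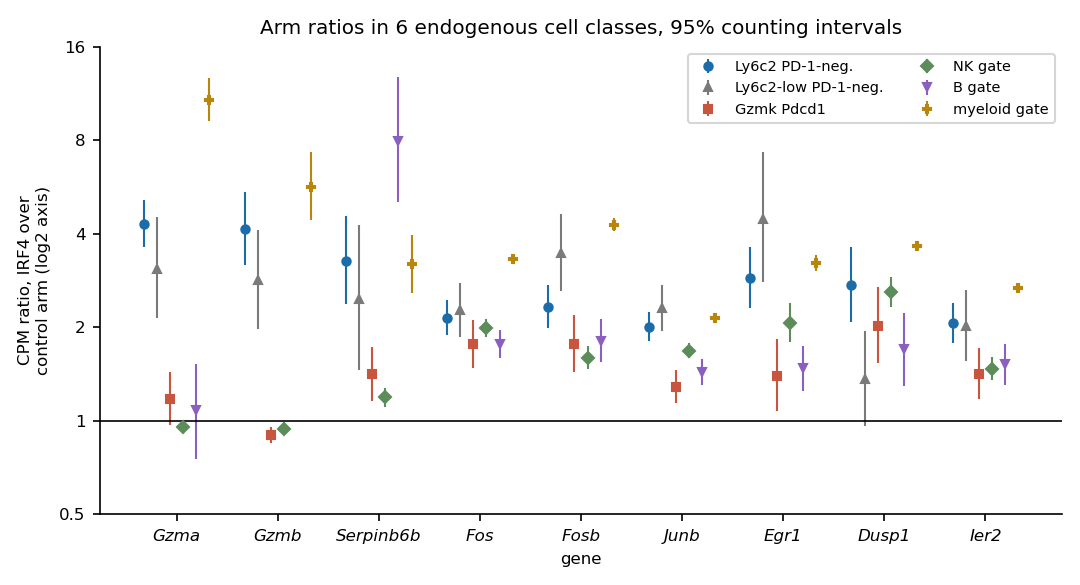
CPM ratios, IRF4 over control, on a log2 axis for 3 cytotoxic genes and 6 early response genes in 6 endogenous cell classes, with 95% counting intervals and unmeasured values left out. Gzma and Gzmb lie near 1 in the Gzmk Pdcd1 and NK cells and above 2 in both PD-1-negative classes and in myeloid cells, whereas Fos and Fosb lie above 1 in every class drawn.

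The ranking over genes at 50 CPM or more added Erdr1, at 126 against 38 CPM (3.31), and Klrb1c, which encodes NK1.1, at 53.6 against 17.5 CPM (3.05), to the highest genes. Erdr1 was higher in the IRF4 arm in the other classes as well, with ratios from 1.74 in myeloid cells to 2.71 in B cells. The 8 lowest were Hbb-bs, Hba-a1, Hbb-bt, Hba-a2, Hmox1, Arg1, Mmp12 and Apoe, transcripts of red cells and macrophages, and 1 or 2 control cells held 50% of the control UMIs of each. Hmox1 stood at 4.43 against 154 CPM (0.0287) and Apoe at 9.3 against 229 CPM (0.0407). Without cells of other RNA the lowest were Hbb-bs, Spp1, Ccl6, Lgals3, Ero1l, Ifi30, Cd74 and Dapl1, of which Dapl1 is a naive and memory T cell gene. Irf4 itself was at 2.66 and 2.19 CPM in the members, under the limit for measurement in both arms.

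The members differed among themselves in Ccl5. A cell held a median of 37 (IRF4) and 26 (control) Ccl5 UMIs, but 19 and 26 cells held 0. At 2 UMIs or fewer stood 38 of 313 cells (12.1%, 8.74 to 16.3) and 42 of 163 (25.8%, 19.2 to 33.2). The limit of 2 UMIs was chosen after the counts were seen, 2 and 1 cells held exactly 3 UMIs, and 30 and 22 cells held 1 to 5 UMIs. After thinning, 10.5% and 22.7% had no Ccl5 UMI. A range of Ccl5 is not a cell type, and the values below describe genes along it.

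Cells with little Ccl5 had more RNA of Ccr7 and other genes of the naive and stem list. Of 2217 genes with a mean level of at least 50 CPM in both libraries, 18 (0.812%) were higher and 69 (3.11%) lower in both at Ccl5 of 2 UMIs or fewer. Taken singly, the IRF4 library had 4.02% of genes higher and 11.7% lower, and the control library 6.14% and 8.89%. Of 12 naive and stem genes 6 were higher and 0 lower. The ratios of low over high Ccl5 were 5.22 and 3.48 for Dapl1, 3.56 and 1.92 for Ccr7, 1.73 and 1.61 for Lef1 and 1.6 and 1.57 for Satb1 in the IRF4 and control arms. S1pr1, with 1.07 and 1.15, and Il7r, with 1.23 and 0.921, were close to 1. Lower were Cxcr3, with ratios of 0.432 and 0.414, and Il2rb, the receptor chain for interleukins 2 and 15, with 0.489 and 0.458. Klrk1 had 0.0963 and 0.176, Klrc1 0.048 and 0.0345, Gzma 0.0401 and 0.0294, Nkg7 0.493 and 0.467 and Cxcr6 0.0924 and 0.225. Cxcr3 and the NK receptors thus went with Ccl5, and Ccr7 and Dapl1 against it, in both libraries, while S1pr1 and Il7r did neither. In the control arm the cells of low Ccl5 also held more Tyrobp and Apoe, with ratios of 5.85 and 4.93, and the part of such RNA was not tested.

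**Figure D4:**
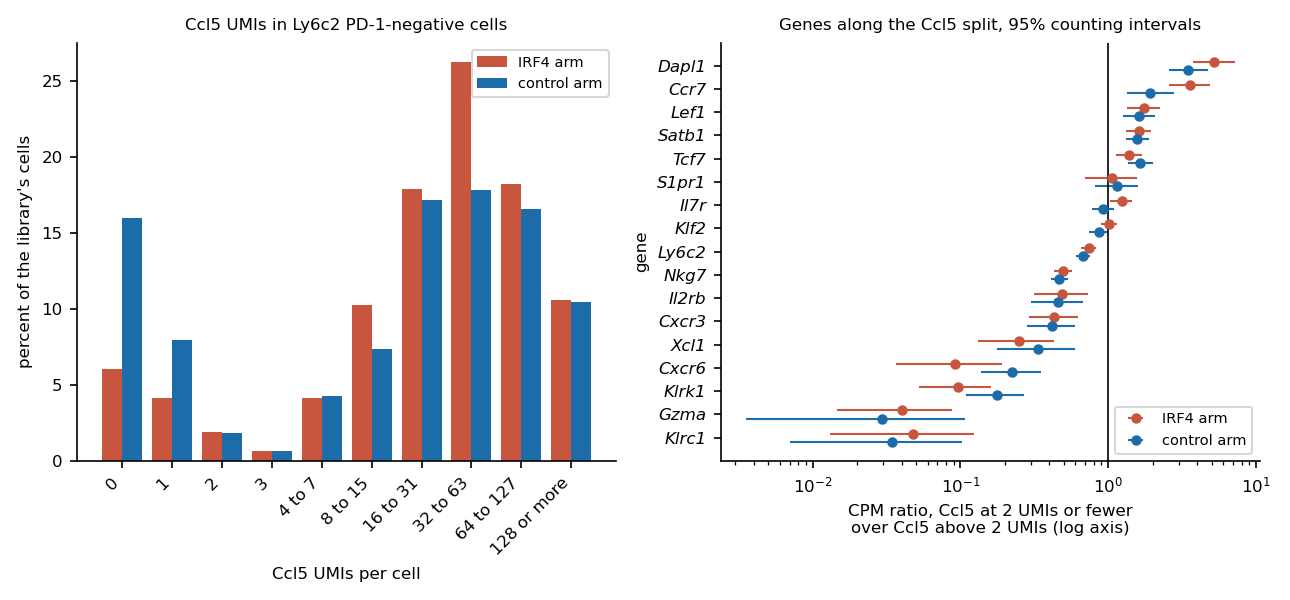
Left, percent of the Ly6c2 PD-1-negative cells of each library by their number of Ccl5 UMIs. Right, CPM ratios of cells with 2 Ccl5 UMIs or fewer over cells with more, on a log axis with 95% counting intervals. The bins widen above 3 UMIs, so the heights of wide and narrow bins cannot be set against each other, and Dapl1 and Ccr7 lie above 1 and Klrc1, Gzma and Klrk1 below 1 in both.

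In cells with more than 2 Ccl5 UMIs, where 2.22% of 2527 genes were higher and 1.74% lower between arms, the ratios were 3.38 (2.83 to 4.05) for Gzma, 3.31 (2.53 to 4.38) for Gzmb and 2.16 (1.86 to 2.52) for Fos. At 2 UMIs or fewer, with 8.14% higher and 9.45% lower, Gzma and Gzmb were under the limit for measurement, and Fos had 1.73 (1.3 to 2.31).

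Transcripts shared with NK and innate-like T cells were present in a part of the members. The summed level of the 10 markers was 541 CPM with 1 marker at 0 in the IRF4 arm and 517 CPM with 2 at 0 in the control arm, and 93 of 313 and 46 of 163 cells held 2 or more UMIs summed over Tyrobp, Fcer1g, Ncr1, Klrb1c, Zbtb16, Trdc and Tcrg-C1. Fcer1g stood at 198 and 210.5 CPM and Tyrobp, a signalling adaptor, at 145 and 226 CPM. Ncr1, which encodes the NK receptor NKp46, had 60 UMIs (IRF4) and 0 UMIs (control), 12.1-fold higher if the control class is set to a floor of 3 counts. That floor is a convention and not the limit of a counting interval. These UMIs came from 15 of 313 cells, and 3 cells held 50% of them. Zbtb16, which defines NKT cells, had 0 and 1 UMIs, and Trdc, of the delta chain, 68 and 41. The Trdc UMIs came from 13 of 313 and 8 of 163 cells. Some of the markers are also genes that memory CD8 T cells can express, and whether the cells are of another lineage was not tested. Without the cells with 2 or more such UMIs, the members' share was 26.0% and 30.9%, and the log2 arm ratio was 1.63 for Gzma and 1.45 for Gzmb.

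The receptor segments were varied. A Trbv UMI was found in 84 of 313 members of the IRF4 arm and 47 of 163 of the control arm, and 19 and 14 of the 35 Trbv segments in the files were seen among the 81 and 46 cells with a single segment. The most frequent was Trbv12-2 in both libraries, in 17 (21.0%) and 8 (17.4%) of those cells. In the Gzmk Pdcd1 cells the most frequent was Trbv16 in the IRF4 arm, in 23 of 110 cells (20.9%), and Trbv19 in the control arm, in 9 of 30 (30.0%). Near-identical V segments can share reads, and 3′ libraries catch the segment in few cells, so these shares describe the cells that had a UMI.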

How the data were processed

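Endogenous CD45+ cells and transferred Pmel-1 cells from B16-F10 tumours were measured by droplet 3′ RNA sequencing, 1 library per group. The deposited values are UMI counts per gene and barcode for 28692 genes, made by the authors with Cell Ranger 3.0.2 and STAR 2.6 on mm10, per the submitters' processing notes. The annotation was not given in the sources used here, and the labels speak of nuclei in 1 place and of sorted cells in others. No ambient RNA or doublet removal was applied, so doublets remain possible. Cells, classes and gene lists were chosen with earlier results of these data known.

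The UMIs of each gene were added up within a class and scaled to CPM by the class total. Intervals at 95% are exact Poisson for levels, conditional binomial for ratios and Clopper-Pearson for shares, and cover counting error only. With 1 library per group no test between arms was possible and no p-value is given. A gene was measured at 10 CPM and 20 UMIs in the higher class, which favours the larger class, and was called past a ratio of 1.5 on log2(CPM + 1). Comparisons along Ccl5 used a mean of 50 CPM. Named genes are those of lists of known function, plus the 8 highest and 8 lowest ratios among called genes at 50 CPM or more. Cells were thinned to 2000 UMIs with seed 1 for shares. The counting of genes was tested on simulated data. Gene positions come from GENCODE vM21 (GRCm38), which matched 28339 genes. Python 3.11.15, numpy 2.4.6, scipy 1.17.1, pandas 2.3.3, matplotlib 3.10.9 and Biopython 1.88 were used. Alternatives changed the gates, scaling, filter and pseudocount. Some genes of the lists and rankings are not reported here.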

Additional observations from a re-analysis of the deposited data

Results flagged for a closer look

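The same gates were applied to the libraries of transferred Pmel-1 cells, which enter no comparison above. There, 47 cells of the transferred IRF4 library and 344 cells of the transferred control library met them. These are values only, with no comparison.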

How the results depend on the processing

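No paired analysis was possible because each group has 1 library, and for the same reason no replicate could be left out. Shares of members, 30.1% and 32.9% in the IRF4 and control arms, were 24.0% and 27.0% with the gates applied to thinned cells, 24.1% and 25.5% at a mitochondrial limit of 5%, and 26.0% in the IRF4 arm without cells of innate-like transcripts. Genes higher and lower between arms, 461 and 342, numbered 738 and 132 in cells with no Lyz2 UMI, 148 and 170 at a pseudocount of 10, 1430 and 1900 with no filter, 74 and 79 at 50 CPM, and 55 and 47 at a mean of 50 CPM, and 191 were lower without innate-like cells. Against the Gzmk Pdcd1 cells, 316 and 635 became 173 and 384 with no Lyz2 UMI, 676 and 318 without ribosomal and mitochondrial genes, 789 and 1302 with no filter, 117 and 378 at 50 CPM, and 94 and 303 at a mean of 50 CPM, with 63 lower after thinning, 175 higher at 5% mitochondrial and 196 higher at a pseudocount of 10. Against the Ly6c2-low cells, 131 and 43 became 228 and 20 at a limit of 1 Ly6c2 UMI, 696 and 524 with no filter and 10 and 27 at a mean of 50 CPM, with 365 lower after thinning, 61 higher with no Lyz2 UMI, 25 lower without innate-like cells, 51 higher at a pseudocount of 10 and 16 higher at 50 CPM. On the log2 scale the direction between arms turned for Zeb2, to 0.94 with no Lyz2 UMI, 0.12 without the deepest cells and 0.35 without innate-like cells, and for Lag3, to 0.76 and 0.32 in the first and last of these. Against the Gzmk Pdcd1 cells it turned for Itga4, to 0.11 after thinning, and for Xcl1, to -1.07 after thinning and -0.23 without innate-like cells. Against the Ly6c2-low cells Xcl1 was counted as higher in the IRF4 library and lower in the control library. The mean log2 ratio of these opposite values turned to -1.74 after thinning, -0.35 with no Lyz2 UMI, -0.66 without innate-like cells and -0.085 without cells of other RNA. The cause was not tested for any of these. The alternatives on cells of other RNA, haemoglobin scaling, the Ccl5 limit and the mean-level filter were chosen after seeing the data. Counts are sparse: a gene at 0 in the control members could stand at up to 3 counts of 1368374.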
